A study of Mus musculus with 8 samples.

Results

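Cells of the midbrain-hindbrain boundary were followed in chimaeric mouse embryos at E8.5. They were picked by their transcripts: a cell was a member when it held at least 1 UMI of Sox2, a neural transcription factor, and at least 1 UMI in at least 2 of En1, En2, Pax2, Pax5 and Wnt1, the 5 genes that mark this region. A UMI (unique molecular identifier) stands for 1 captured RNA molecule. The rule found 931 members among 37186 E8.5 cells that passed quality control, or 2.50%, of which 461 were Tet-TKO cells and 470 were WT host cells. Sox2 and the 5 markers chose the members, so their levels in the members are given as a description, without a test.

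The midbrain-hindbrain boundary, or isthmic organiser, is a narrow band of the neural tube that patterns the midbrain in front of it and the anterior hindbrain behind it. It forms where cells with the transcription factor Otx2 meet cells with Gbx2. On the midbrain side the secreted ligand WNT1 maintains En1, on the hindbrain side FGF8 carries the organising signal, and the engrailed and Pax2/5/8 transcription factors hold the territory in place. TET enzymes oxidise methylated cytosine and so take part in DNA demethylation.

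Embryos were made by injecting Tet-TKO ES cells, which lack Tet1, Tet2 and Tet3, into wild-type C57BL/6J blastocysts carried by CD1 recipients. The ES cells carried a histone H2B-tdTomato label driven by the CAG promoter. Pooled embryos were flow-sorted into tdTomato-positive Tet-TKO cells and tdTomato-negative WT host cells, and each fraction was profiled by 10x Genomics scRNA-seq. At E8.5 there were 4 Tet-TKO libraries and 2 WT host libraries. The Tet-TKO cells have a C57BL/6J-129Sv background, come from a cultured ES cell line and carry the label, none of which holds for the host, so genotype cannot be told apart from strain, ES cell origin or label. Host tissue surrounds the Tet-TKO cells, and nothing in the labels says that libraries came from separate pools, so p-values measure the spread between libraries, which may be technical. Values per library are given below in the order Tet-TKO 1 to 4, then WT host 1 and 2.

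The 6 libraries held 65601218 to 136982886 UMIs and 1008 to 9545 cells that passed quality control. Depth per cell differed: the median member had 19834, 14152.5, 49093.5 and 80709 UMIs in the Tet-TKO libraries and 16371 and 14027 in the WT host libraries. Summed over its members, each library gave 2300785 to 5796318 UMIs. A tdTomato UMI was seen in 69.7 to 96.5% of Tet-TKO members and in 0.671 and 0.62% of WT host members. Tet1 was at 17.0, 12.1, 20.5 and 26.9 against 29.1 and 27.9 CPM (counts per 1e6 UMIs of the members), and Tet2 and Tet3 had no adjusted p under 0.05 either. These counts come from tags at the 3′ end of transcripts, which need not lie in the deleted part of each gene, so they check nothing about the knockout. Any pair of libraries shared 0 to 26 cell barcodes, and none of these was a member in both. Doublet scoring marked 86 members. Xist stood at 3.97 to 39.9 CPM in Tet-TKO members and at 472 and 432 CPM in WT host members, and the Y-linked Eif2s3y at 1.96 to 4.35 against 19.01 and 21.2 CPM. Both were thus lower in Tet-TKO members. For Eif2s3y the adjusted p by edgeR was over 0.05 with members found at 5000 UMIs (0.173) and with an equal number of members (0.0542). The same held without members holding other types' markers (0.125). The sex of the contributing embryos is not given, and its part in the levels of X-linked genes was not tested.

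The label was compared with genes the rule had not used. Ordered by the lowest of the 6 libraries' ratios to all other cells of the same library, the leading genes were Fam181b (log2 ratio 3.53 to 4.69 over the 6 libraries), Otx1 (2.68 to 3.50), Tal2, Mylk and Pou3f1. By the mean ratio Elmod1 (3.27) came before Otx1 (2.94). Pax7, Otx2, Pou3f2 and Sox21 were also among the first 15. Otx1, Otx2 and Pax7 are genes of the midbrain and its neighbours and did not go against the label. Pou3f1, Pou3f2 and Sox21 are neural progenitor genes. These can lead for any Sox2-chosen cells set against all other cells, so they do not bear on the label. Of the further boundary genes tested below, only Otx2 was among the first 15. Most members held few of the 5 markers: 451 had UMIs of exactly 2, 262 of 3, 172 of 4 and 46 of all 5, while just outside the rule 1579 Sox2 cells held 1 marker and 6758 held none. The commonest combinations were En1 with Pax2 (84 Tet-TKO and 47 WT host cells), En1 with Pax5 (44 and 46) and En1, En2, Pax2 and Pax5 together (65 and 23). By library this last one was held by 10, 15, 28 and 12 against 2 and 21 cells. The libraries differ in depth and number of cells, and the part of depth was not tested.

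The share of cells that met the rule varied within both groups, and cells of Tet-TKO 3 and 4, the deepest libraries, met it most often. Before depth was equalised it was 1.56, 1.97, 4.96 and 4.86% in the Tet-TKO libraries and 1.80 and 3.55% in the WT host libraries, and the groups overlapped. The mean difference was 0.66 percentage points (Tet-TKO minus WT host, two-sided exact permutation test over libraries, p = 0.667), and it turned to -0.214 without WT host 1. After every cell was thinned to 5000 UMIs and the rule applied again, the share was 0.459, 0.521, 0.585 and 0.544% against 0.636 and 1.62%, from 31, 47, 13 and 5 members against 49 and 135. All 4 Tet-TKO libraries then lay below both WT host libraries, by 0.603 points on average (exact permutation p = 0.133, 0.333 after Benjamini-Hochberg adjustment over 5 shares tested). That p is the smallest that 4 libraries against 2 can give. Without WT host 2 the thinned difference shrank to -0.109 points, and the share in the other WT host library lay close to the Tet-TKO values. The separation held at 5000 UMIs but not at the other depths tried: at 10000 UMIs the shares were 0.748, 1.72, 1.84 and 1.60% against 1.44 and 3.33% (exact permutation p = 0.533), so 3 Tet-TKO libraries lay above WT host 1, and at 3000 UMIs Tet-TKO 4 (0.420%) lay above WT host 1 (0.312%). It was also lost without the Sox2 condition, at 0.858, 1.44, 1.84 and 1.52% against 1.01 and 2.77%, with Sox2 cells as the denominator, at 4.03, 3.33, 3.75 and 2.94% against 3.78 and 8.66%, and with at least 3 markers, at 0.0888, 0.111, 0.225 and 0.109% against 0.221 and 0.637%.

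**Figure D1:**
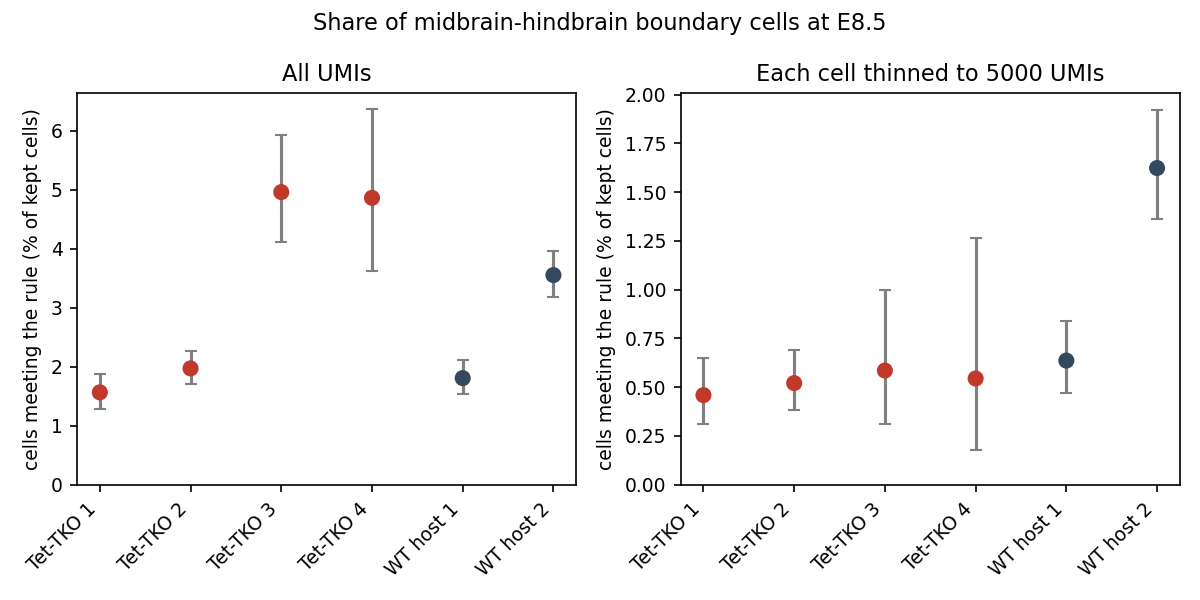
Share of E8.5 cells that met the boundary rule in each library, on all UMIs (left) and after thinning each cell to 5000 UMIs (right), in percent; points are libraries and bars are 95% exact binomial intervals, which cover counting error only. On all UMIs the deep libraries Tet-TKO 3 and 4 stand highest at 4.96 and 4.86%, and after thinning the 4 Tet-TKO libraries lie at 0.459 to 0.585%, below WT host 1 (0.636%) and WT host 2 (1.62%), an order that did not hold at 10000 UMIs.

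Among the rule's own genes Wnt1 stood apart. In the members it was at 21.3, 19.7, 12.1 and 20.1 CPM in the Tet-TKO libraries and at 90.8 and 101 CPM in the WT host libraries. En1, the most abundant of the 5, was at 263, 237, 193 and 212 against 240 and 345 CPM. Pax2, with 70.0, 68.2, 42.5 and 45.7 against 72.9 and 54.1 CPM, Pax5, with 29.6, 36.0, 44.0 and 42.3 against 31.8 and 62.3 CPM, and En2, with 37.0, 36.3, 41.3 and 53.1 against 14.0 and 57.9 CPM, overlapped between the groups. Sox2 was at 139, 192, 122 and 113 against 259 and 229 CPM, so that every Tet-TKO library lay below both WT host libraries. A Wnt1 UMI was present in 22.7, 19.1, 21.1 and 24.5% of Tet-TKO members and in 55.0 and 51.7% of WT host members. The median member was deeper in 3 of the 4 Tet-TKO libraries than in both WT host libraries, and the part of depth was not tested. Members that entered through En1 and Wnt1 alone numbered 14 Tet-TKO and 45 WT host cells.

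Each marker was then measured in cells chosen without it, by Sox2 and at least 2 of the other 4 markers, so its own UMIs did not enter the choice. The choice still depended on depth and on markers found in the same cells. This was added after the data had been seen, when Wnt1 was already known to stand apart. Chosen without Wnt1 there were 101, 169, 108 and 47 Tet-TKO cells and 121 and 275 WT host cells. Wnt1 was at 18.3, 11.9, 7.51 and 19.01 CPM in the former (14.2 ± 5.48, SD, n = 4) and at 71.9 and 89.6 CPM in the latter (80.8 ± 12.6, n = 2). The groups did not overlap. The fitted difference was -2.56 on the log2 scale (SE 0.30, adjusted p = 0.00240 over 10982 genes, edgeR quasi-likelihood test), and it ranged from -2.76 to -2.28 when 1 library at a time was left out. Without WT host 2 the adjusted p was 0.0998. The other 4 markers, each measured the same way, did not pass: En1 differed by -0.34 (SE 0.21, adjusted p = 0.528 by edgeR), En2 by 0.22 (SE 0.43, adjusted p = 0.852), Pax2 by -0.03 (SE 0.20, adjusted p = 0.962) and Pax5 by -0.18 (SE 0.30, adjusted p = 0.834). A replicate block, here and below, takes same-numbered libraries as pairs, which the labels do not state. With such a block on libraries 1 and 2 Pax5 passed (-0.60, adjusted p = 0.00999 by edgeR), and without the block the same libraries gave -0.62 (adjusted p = 0.245). These values moved with the WT host library left out: without WT host 2, En2 was at 1.76, Pax5 at 0.40 and En1 at 0.053, and without WT host 1, En2 was at -0.42 and Pax2 at 0.19, none of them past an adjusted p of 0.05.

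**Figure D2:**
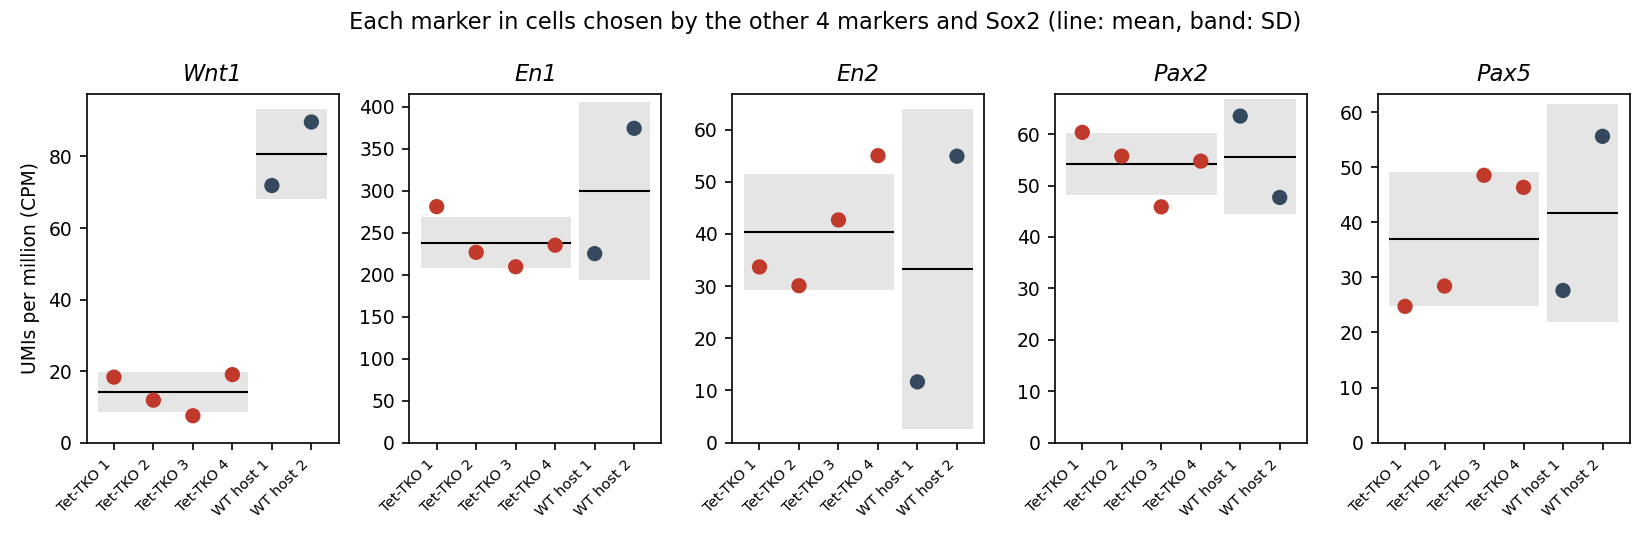
Level of En1, En2, Pax2, Pax5 and Wnt1 (CPM, linear axis from 0) in boundary cells chosen without the plotted gene; points are libraries, lines are group means and bands are ± 1 SD (4 Tet-TKO and 2 WT host libraries). The groups overlap for En1, En2, Pax2 and Pax5, while the Tet-TKO libraries lie at 7.51 to 19.01 CPM of Wnt1 and the WT host libraries at 71.9 and 89.6.

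Wnt1 lies at chr15:98789857-98793837 on the plus strand (GRCm38). Its level was split by side of the boundary with the unthinned UMIs of Otx2 and Gbx2. In members with Otx2 and without Gbx2, the midbrain side, Wnt1 was at 36.5, 27.3, 23.0 and 38.7 CPM against 134 and 139 CPM. On the other side, in members with Gbx2 and without Otx2, it was at 1.98, 2.91, 4.23 and 0 CPM against 28.9 and 22.2 CPM. These are values of the members, whom Wnt1 UMIs helped to choose, and so a description. Cells chosen as forebrain or spinal cord in the same libraries held at most 0.93 and 1.66 CPM of Wnt1. Members were left out of both sets, and Wnt1 helped to choose the members, so this too is a description. Over all cells that passed quality control and at 5000 UMIs each, a Wnt1 UMI was found in 0.252, 0.543, 0.405 and 0.653% of Tet-TKO cells and in 1.25 and 2.62% of WT host cells. These shares did not overlap, and no choice of members enters them. They also vary with the kinds of cell in each library, whose part was not tested. A Sox2 UMI was found in 11.4, 15.6, 15.6 and 18.5% of the Tet-TKO and in 16.8 and 18.8% of the WT host cells at that depth. In cardiomyocyte-marker cells, which should lack Wnt1, the thinned share was 0% in every library except WT host 2, where 3 of 201 cells (1.49%, exact 95% interval 0.309 to 4.30%) held a Wnt1 UMI. That interval covers counting error only and reaches past the 2.62% of all its cells. In Tet-TKO 1 to 4 the same intervals reached up to 2.02, 2.18, 2.60 and 5.78%, past their shares over all cells too. These few cardiomyocyte-marker cells thus do not tell the shares over all cells apart from background.

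Promoter sequences are shown for Wnt1, for Pax8, the boundary gene outside the rule that fell at an adjusted p under 0.05, and for Msx1, a dorsal neural gene that rose at that threshold, to show the sequence and the CpG sites next to their start sites. Each is the 250 bases before the RefSeq start site on the gene's own strand (GRCm38.p6), with every CpG in capitals, and all 3 symbols were found in RefSeq.
Wnt1, chr15:98789607-98789856, plus strand: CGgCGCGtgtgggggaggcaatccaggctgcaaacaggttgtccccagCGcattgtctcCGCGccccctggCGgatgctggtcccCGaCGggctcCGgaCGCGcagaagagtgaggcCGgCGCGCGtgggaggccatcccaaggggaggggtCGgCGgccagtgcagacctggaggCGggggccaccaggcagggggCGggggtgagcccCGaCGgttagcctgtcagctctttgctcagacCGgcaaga
Pax8, chr2:24475600-24475849, minus strand: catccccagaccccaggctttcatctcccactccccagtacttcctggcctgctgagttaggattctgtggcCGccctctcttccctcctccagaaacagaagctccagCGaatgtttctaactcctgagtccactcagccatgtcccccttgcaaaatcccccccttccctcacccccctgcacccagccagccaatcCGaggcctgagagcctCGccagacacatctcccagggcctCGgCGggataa
Msx1, chr5:37824586-37824835, minus strand: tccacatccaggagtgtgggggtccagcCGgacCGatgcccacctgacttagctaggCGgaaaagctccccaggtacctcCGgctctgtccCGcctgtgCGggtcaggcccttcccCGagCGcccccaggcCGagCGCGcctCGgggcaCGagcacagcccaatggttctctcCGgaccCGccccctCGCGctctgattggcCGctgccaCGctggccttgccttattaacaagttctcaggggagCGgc
The Wnt1 window holds 23 CpG sites, a number reached by 13.3% of 32851 RefSeq promoter windows of the same length. That of Msx1 holds 20 (reached by 17.9%), and that of Pax8 holds 6 (reached by 50.4%), which is also the median of all windows. CG reads the same on both strands. No methylation was measured in these libraries, and nothing about the levels is drawn from these windows.

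Of the other genes that act at the boundary, 1 of 13 tested fell in Tet-TKO members at an adjusted p under 0.05 and 0 rose (edgeR quasi-likelihood test on UMIs summed per library, adjusted over 11108 genes). Over all genes tested 1.02% fell and 0.585% rose at that threshold. The median log2 fold change of the 13 genes was -0.49, beside 0.011 over all genes. At an unadjusted p under 0.05 there were 5 of 13, and DESeq2 passed 3: Pax8, Efna2 and Hes3. Over all genes 1479 of 11108 (13.3%) had an unadjusted p under 0.05, and DESeq2 passed 222 of 11106 (1.999%) at an adjusted p under 0.05. Such counts of the lists below are read beside these shares.

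Pax8 (chr2:24420560-24475599), which acts with Pax2 and Pax5 at the boundary and also in otic and kidney progenitors, was the gene that fell. It was at 3.48, 2.42, 6.73 and 5.63 CPM in Tet-TKO members and at 11.6 and 22.4 CPM in WT host members, without overlap. The difference was -1.86 (SE 0.36, adjusted p = 0.0332 by edgeR, lower in 4 of 4 libraries), from 77 and 142 UMIs in the groups. The adjusted p rose to 0.612 without WT host 2, 0.0605 without WT host 1 and 0.0558 without Tet-TKO 4. Pax8 marks other tissues too, so their markers were read beside it: Oc90 and Foxi3 of the otic list were at 0 in every library, and the other genes of that list, Pax8 left out, summed to 27.4, 28.7, 25.7 and 18.6 against 26.0 and 12.4 CPM, with an overlap. The intermediate mesoderm list also holds Pax8. Its other genes summed to 48.3, 29.1, 30.4 and 39.4 against 20.2 and 11.6 CPM, so that all 4 Tet-TKO libraries lay above both WT host libraries. All 6 of these that were tested were above 0, with a median of 1.54, and 5 had an unadjusted p under 0.05, but 0 passed edgeR's adjusted p of 0.05 and 0 passed by DESeq2. Among them Foxf1, a forkhead factor of mesoderm, was at 20.9, 11.8, 5.18 and 9.79 against 4.66 and 3.41 CPM (1.53, SE 0.58, adjusted p = 0.292 by edgeR), and Hand2, a mesodermal transcription factor, at 11.7, 3.46, 6.39 and 7.34 against 1.94 and 2.41 CPM (1.65, SE 0.51, adjusted p = 0.204). The part of such cells in the results was not tested. Without the members that held at least 2 genes of another type's list, Pax8 differed by -1.64 and its call was lost (adjusted p = 0.179), and the call was also lost with at least 3 markers (0.0700), at 5000 UMIs (0.0551) and with like libraries summed (0.101).

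The secreted FGFs of the organiser gave no call over the 6 libraries. Fgf8, its main signal, was at 72.2, 85.5, 79.7 and 80.2 against 83.4 and 104 CPM (log2 fold change -0.25, SE 0.14, adjusted p = 0.467 by edgeR). Fgf17, with 4.78, 6.57, 20.9 and 22.0 against 12.0 and 27.3 CPM, and Fgf18, with 4.78, 4.15, 7.42 and 9.05 against 6.60 and 13.4 CPM, act beside Fgf8 at the boundary and overlapped between the groups. Within the Tet-TKO group the deep libraries 3 and 4 held more Fgf17 than libraries 1 and 2. On libraries 1 and 2 of each genotype alone Fgf17 passed, at -1.78 (adjusted p = 0.0239 by edgeR; -1.74 and 5.92e-05 with a replicate block), and Fgf18 did so with the block (-1.15, adjusted p = 0.0349). Il17rd (Sef), a feedback inhibitor of FGF signalling, showed the same split at 18.7, 22.5, 61.3 and 57.0 against 14.7 and 33.5 CPM, and so did Cnpy1, a boundary modulator of FGF receptors, at 1.30, 2.77, 6.21 and 5.14 against 1.16 and 4.41 CPM.

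Otx2, Gbx2 and Hes3 set the position of the boundary or keep its cells undifferentiated. Otx2 was at 61.7, 66.4, 83.0 and 71.7 against 83.4 and 115 CPM, so each Tet-TKO library was below both WT host libraries, but the difference of -0.50 (SE 0.15) had an adjusted p of 0.183 by edgeR. On libraries 1 and 2 alone Otx2 passed, at -0.59 (adjusted p = 0.0363; -0.58 and 0.000467 with a replicate block). Gbx2 leaned the other way, at 24.4, 23.2, 13.6 and 22.5 against 13.2 and 16.2 CPM (0.47, SE 0.29, adjusted p = 0.529 by edgeR), with an overlap, and passed with the block (0.73, adjusted p = 0.0220). Hes3, a repressor that delays neurogenesis, was at 91.3, 84.8, 75.3 and 52.8 against 137 and 135 CPM (-0.85, SE 0.22, adjusted p = 0.111 by edgeR). The groups did not overlap for Hes3, and DESeq2 gave it an adjusted p of 0.0266. Hes3 also passed without Tet-TKO 1 (-0.97, adjusted p = 0.0400 by edgeR) and on libraries 1 and 2 alone (-0.56, adjusted p = 0.00525; -0.57 and 8.00e-05 with a replicate block). Lmx1b, a regulator of Wnt1 and Fgf8, was at 6.52, 7.96, 9.84 and 13.7 against 12.0 and 9.22 CPM, and Sp8, a regulator of Fgf8, at 66.1, 68.2, 45.4 and 51.1 against 64.0 and 58.1 CPM, each with an overlap.

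The ephrin ligands Efna2 and Efna5, cell-surface guidance cues graded across the midbrain, were on the low side in the Tet-TKO libraries. Efna2 was at 20.4, 21.8, 22.1 and 42.6 against 37.6 and 83.8 CPM (-1.20, SE 0.33, adjusted p = 0.143 by edgeR), where Tet-TKO 4 lay above WT host 1. DESeq2 gave Efna2 an adjusted p of 0.0185. By edgeR it passed without Tet-TKO 4 (-1.50, adjusted p = 0.0367), after members whose tdTomato UMIs went against the sort were dropped (-1.38, adjusted p = 0.0369) and on libraries 1 and 2 alone (-1.51, adjusted p = 0.0143; -1.49 and 7.41e-07 with a replicate block). Efna5 was at 48.7, 59.9, 55.4 and 64.3 against 72.6 and 87.0 CPM (-0.49, SE 0.14, adjusted p = 0.159), with no overlap, and passed with the block (-0.48, adjusted p = 0.00497 by edgeR).

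**Figure D3:**
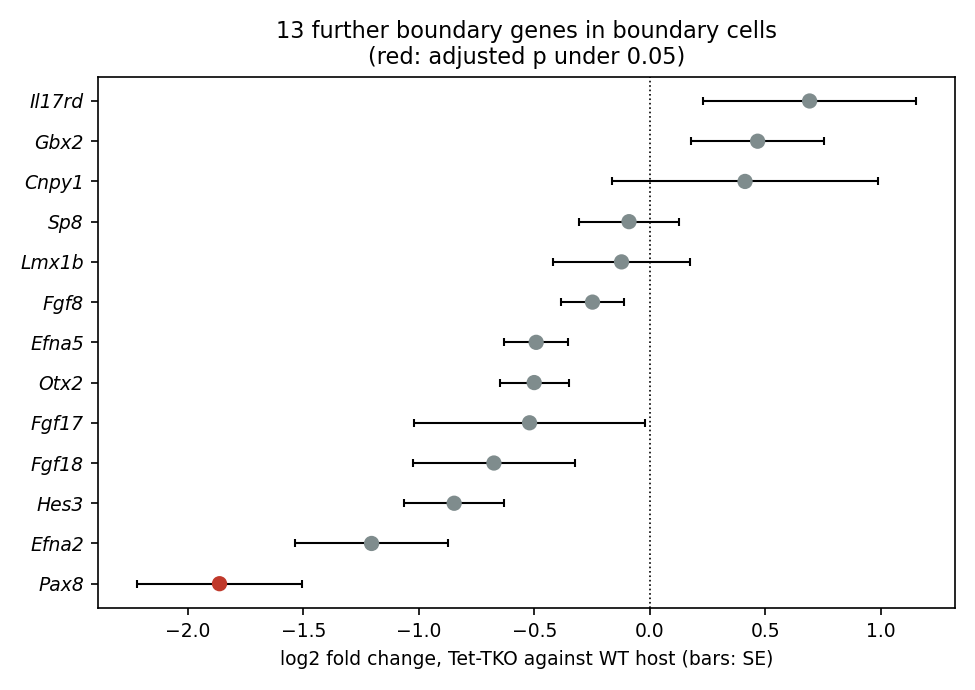
Log2 fold change (Tet-TKO minus WT host) of the 13 boundary genes outside the rule in boundary cells; points are fitted values, bars ± 1 SE (4 against 2 libraries), and the filled red point is the gene past an adjusted p of 0.05. Pax8 lies lowest at -1.86 and Il17rd highest at 0.69, and 10 of the 13 points are below 0.

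The balance of both sides was also counted cell by cell at 5000 UMIs. An Otx2 UMI was found in 18.7, 23.0, 29.8 and 24.5% of Tet-TKO members and in 32.2 and 36.5% of WT host members. The difference of -10.3 percentage points had an exact permutation p of 0.133 (0.333 adjusted over the 5 shares), and no Tet-TKO library reached a WT host library. With members also found on the thinned counts, and so fewer, the shares overlapped at 9.68, 25.5, 46.2 and 40.0% against 40.8 and 34.1% (exact permutation p = 0.667). In cells with cardiomyocyte markers, which should lack Otx2, the share was 0 to 5.39%. On full counts, where the deeper Tet-TKO libraries gain most, the Otx2 shares overlapped at 44.5, 39.4, 56.1 and 57.1 against 54.4 and 57.0%. Gbx2 was found in 10.3, 9.63, 6.14 and 14.3% against 7.53 and 5.66% (3.49 points, exact permutation p = 0.267), with 0 to 1.80% in the cardiomyocyte-marker cells. All 4 Tet-TKO libraries lay above both WT host libraries with members found on the thinned counts (16.1, 12.8, 7.69 and 20% against 6.12 and 7.41%, Tet-TKO 3 and 4 from 13 and 5 cells), at 10000 UMIs (16.3, 19.6, 17.5 and 12.2449% against 12.2302 and 12.1951%) and on full counts (26.4, 25.5, 34.2 and 44.9% against 17.4 and 17.1%), each with an exact permutation p of 0.133. At 10000 UMIs the Tet-TKO 4 value came from 6 of 49 cells, so that separation is slight. With at least 3 markers the Gbx2 shares overlapped, at 11.3, 10.7, 4.92 and 16.7% against 6.85 and 4.32% (exact permutation p = 0.267). Fgf8 was found in 20.6, 24.1, 27.2 and 24.5% against 22.6 and 24.8% (0.354 points, exact permutation p = 0.933). At 10000 UMIs the Fgf8 shares overlapped too (2.28 points, exact permutation p = 0.533). On full counts, which differ in depth, they were 47.3, 46.3, 57.9 and 71.4% against 40.3 and 38.0% (16.6 points, exact permutation p = 0.133). The cardiomyocyte-marker cells held Fgf8 UMIs in 16.1 to 30.5%, but cardiac cells can express Fgf8, so they give no background for it.

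The pathways on either side of the organiser gave few calls. In the FGF response list 0 of 18 genes passed edgeR's adjusted p of 0.05 (1 at an unadjusted p under 0.05, 0 by DESeq2), with a median log2 fold change of 0.06. The receptor Fgfr1 was at 81.3, 60.5, 79.1 and 73.9 against 89.6 and 67.9 CPM. Although Wnt1 itself was lower, 0 of 22 Wnt targets and modulators passed (5 unadjusted, 0 by DESeq2, median 0.29). Ccnd1, a cell cycle gene and Wnt target, was at 151, 197, 266 and 277 against 178 and 223 CPM, and Sfrp1, a secreted Wnt inhibitor, at 164, 161, 158 and 137 against 106 and 129 CPM.

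Genes of the neighbouring territories gave no call by edgeR. Of the forebrain and midbrain genes 0 of 14 passed (6 unadjusted; DESeq2 passed Six3 and Pax6), with a median of 0.07. Of the hindbrain genes 0 of 16 passed (4 unadjusted, 0 by DESeq2), with a median of 0.33. Irx3, a hindbrain and dorsal midbrain gene, was at 80.9, 87.5, 68.0 and 52.4 against 130 and 98.0 CPM (-0.66, SE 0.23, adjusted p = 0.262 by edgeR). The retinoic acid list, which is active further back, had 0 of 9 past the threshold (4 unadjusted, 0 by DESeq2), with all 9 fitted values above 0 and a median of 0.45.

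Along the dorsal to ventral axis, 1 of 13 dorsal genes rose (6 at an unadjusted p under 0.05, and DESeq2 passed Msx1). Msx1, a BMP-responsive transcription factor of the dorsal midline, was at 99.6, 84.8, 76.1 and 95.9 CPM in Tet-TKO members and at 45.4 and 45.1 CPM in WT host members. The groups did not overlap, with a difference of 0.97 (SE 0.17, adjusted p = 0.0217 by edgeR, higher in 4 of 4 libraries). The adjusted p was 0.221 without WT host 1 and 0.375 without WT host 2, with the fold change still at 1.00 and 0.94. Leaving out members with markers of other cell types gave 0.61 (adjusted p = 0.75). The Msx1 call was also lost with at least 3 markers (0.154), at 5000 UMIs (0.180) and with like libraries summed (0.0515). Pax3 and Zic2, both dorsal, had no adjusted p under 0.05, at 44.4 to 53.3 against 66.7 and 53.9 CPM and at 38.3 to 48.7 against 48.1 and 50.1 CPM. The list had a median of 0.55.

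On the ventral side 0 of 12 Hedgehog pathway genes passed edgeR's test (3 unadjusted; DESeq2 passed Ptch1), with a median of 0.45. Ptch1, the Hedgehog receptor and a target of the pathway, was at 51.3, 82.0, 130 and 120 against 34.9 and 43.9 CPM. All 4 Tet-TKO libraries lay above both WT host libraries (1.27, SE 0.30, adjusted p = 0.0823 by edgeR). Gas1, a Hedgehog co-receptor, lay below in all 4, at 81.3 to 92.2 against 109 and 129 CPM (-0.49, SE 0.13, adjusted p = 0.135).

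Lists of progenitor state and DNA methylation gave no call by edgeR. Of 18 neural progenitor genes 0 passed edgeR's test (7 unadjusted; DESeq2 passed Sox9), and Sox11, one of the most abundant, was at 370 to 403 against 385 and 425 CPM. Of 15 Notch and neuronal differentiation genes 0 passed (4 unadjusted; DESeq2 passed Hes3). Epiblast and pluripotency genes gave 0 of 7 (0 unadjusted, 0 by DESeq2), with Dnmt3b, the de novo DNA methyltransferase, at 166, 118, 72.3 and 90.0 against 157 and 111 CPM. Of the 8 DNA methylation enzymes tested 0 passed (2 unadjusted; DESeq2 passed Tdg), and Uhrf1, which brings maintenance methylation to replicated DNA, was at 121 to 142 against 139 and 175 CPM.

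Imprinted genes, whose expression is tied to DNA methylation inherited from 1 parent, held 3 rises among 23 tested, 0 falls, and a median of 0.55 (13 unadjusted; DESeq2 passed Snrpn, Nnat, Impact, Plagl1 and Zdbf2). Snrpn was at 240, 212, 234 and 302 CPM in Tet-TKO members and at 85.0 and 78.0 CPM in WT host members (1.59, SE 0.16, adjusted p = 0.000817 by edgeR). Zdbf2 was at 100, 122, 175 and 165 against 48.5 and 50.3 CPM (1.50, SE 0.19, adjusted p = 0.00460 by edgeR). Impact was at 57.4, 53.3, 56.8 and 63.4 against 28.3 and 33.9 CPM (0.88, SE 0.15, adjusted p = 0.0181 by edgeR). All 3 are paternally expressed, and none overlapped between groups. The adjusted p for Snrpn was 0.0546 without WT host 2, that for Zdbf2 0.0895 and 0.166 without WT host 1 and 2, and that for Impact 0.258 and 0.241. By edgeR Impact also missed the threshold without members holding other types' markers (0.89, adjusted p = 0.0957), with an equal number of members (0.422) and with at least 3 markers (0.145). It did so too at 5000 UMIs (0.362) and with like libraries summed (0.0895). Snrpn and Zdbf2 passed under each of these settings. Gnas and Mest, the most abundant of the list, were at 620 to 706 against 639 and 691 CPM and at 554 to 617 against 675 and 821 CPM, and neither passed. With a replicate block on libraries 1 and 2 Mest did pass (-0.27, adjusted p = 0.00882 by edgeR). Chosen after their values were seen, Snhg14, the long transcript next to Snrpn, rose by 1.83 (SE 0.18, adjusted p = 0.000746 by edgeR) and Peg12 by 1.00 (SE 0.20, adjusted p = 0.0440). The Peg12 call was lost without Tet-TKO 3 (adjusted p = 0.102), Tet-TKO 4 (0.0821), WT host 1 (0.398) or WT host 2 (0.359), and with at least 3 markers (0.0638), at 5000 UMIs (0.194), without members holding other types' markers (0.87, adjusted p = 0.198), with an equal number of members (0.224) and with like libraries summed (0.109).

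Of 21 germline and cancer-testis genes 7 were at 0 in every library and 4 were tested (4 at an unadjusted p under 0.05, and DESeq2 passed Xlr3b). Trap1a, on the X chromosome, fell, at 1.74, 0.692, 0 and 0 against 12.0 and 6.01 CPM (-4.30, SE 0.84, adjusted p = 0.0368 by edgeR, 0.483 by DESeq2), and its adjusted p was 0.398 without WT host 1 and 0.258 without WT host 2. The call was also lost without Tet-TKO 2, 3 or 4, at adjusted p of 0.0533, 0.0838 and 0.0590, and with like libraries summed (0.100). Xlr3b, also X-linked, was at 9.13, 4.84, 16.2 and 15.9 against 1.55 and 2.41 CPM (2.48, SE 0.52, adjusted p = 0.0504 by edgeR).

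Markers of other cell types were read in the members because the rule can admit mixed or mislabelled cells. The erythroid list fell in 7 of 9 genes tested (9 unadjusted; DESeq2 passed Hba-x, Hba-a2, Hbb-bs, Alas2 and Klf1), and its summed level was 8.56 to 453 CPM in Tet-TKO and 2756 and 5423 CPM in WT host members. Haemoglobin transcripts took 0.0008 to 0.0453% of Tet-TKO and 0.271 and 0.538% of WT host UMIs. In the neural crest list 1 of 6 genes rose: Twist1, a mesenchymal and crest transcription factor, was at 47.4, 42.6, 40.9 and 41.8 against 19.01 and 20.6 CPM (1.11, SE 0.17, adjusted p = 0.0141 by edgeR, 0.187 without WT host 1 and 0.256 without WT host 2). The Twist1 call was also lost without members holding other types' markers (1.35, adjusted p = 0.507) and with an equal number of members per library (0.55, adjusted p = 0.556), with at least 3 markers (0.226), at 5000 UMIs (0.321) and with like libraries summed (0.0616). The summed crest list overlapped, at 94.5 to 130 against 79.4 and 121 CPM. Paraxial mesoderm genes summed to 10.9 to 85.4 against 15.4 and 16.7 CPM, with Tet-TKO 4 highest, and cardiomyocyte genes to 20.4 to 179 against 110 and 336 CPM. In these lists and in those of gut endoderm, surface ectoderm, notochord and endothelium 0 of 21 genes passed edgeR's test (8 at an unadjusted p under 0.05, 0 by DESeq2). Members with at least 2 detected genes of another type's list numbered 57, 85, 101 and 43 in Tet-TKO and 51 and 103 in WT host libraries, so the deep libraries Tet-TKO 3 and 4 lost most of their cells when these were left out. Without these cells 13 and 6 members remained in Tet-TKO 3 and 4. Efna2 then passed (-1.70, adjusted p = 0.0277 by edgeR), as did Mab21l2, and the calls of Pax8, Msx1, Impact, Peg12, Twist1, Spink1, Rspo1 and Eif2s3y were lost. The fold changes of Impact (0.89 against 0.88 with all members), Twist1 (1.35 against 1.11), Peg12 (0.87 against 1.00) and Pax8 (-1.64 against -1.86) stayed near their size, while those of Spink1 (-1.49 against -4.15), Msx1 (0.61 against 0.97) and Rspo1 (1.37 against 2.21) shrank.

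Across all 11108 genes tested, 61 were called at an adjusted p under 0.01 and an at least 2-fold change, of which 28 rose (0.252%) and 33 fell (0.297%). The rises were led by transcripts of uncertain origin. Of the 10 largest, 8 were processed pseudogenes, led by Rpl29-ps5, Rps15a-ps8, Gm6969 and Rps3a3 and with Gm9855, Rps13-ps1, Pcna-ps2 and Gm10036 after them. Rps3a3 was at 4746, 4555, 4027 and 3857 CPM in Tet-TKO and at 76.8 and 85.0 CPM in WT host members, while its parent gene Rps3a1, which encodes a ribosomal protein, was at 376, 445, 335 and 413 against 5305 and 4891 CPM. Counting can split reads between near-identical copies, and the groups differ in strain, so these values are uncertain as expression. Rpl29-ps5 and the long transcripts C330024D21Rik and Gm17300 had no UMI in WT host members and were at least 16.4-fold, 16.4-fold and 12.4-fold higher in Tet-TKO members, against a floor of 3 counts over the group. Without WT host 2 their adjusted p values were 0.167, 0.0919 and 0.211, and those of Gm6969 and Gm9855 were 0.0974 and 0.0893. Gm17300 also missed the threshold without WT host 1, at 0.0500014.

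The 10 largest falls held genes of yolk sac and blood. Ttr, a thyroid hormone and retinol carrier made by visceral endoderm, was at 2.17, 2.08, 0.690 and 0.245 CPM in Tet-TKO members and at 86.5 and 48.1 CPM in WT host members (-5.92, SE 0.46, adjusted p = 0.000179 by edgeR). Apom, an apolipoprotein, was at 0 to 0.870 against 30.3 and 24.1 CPM, and Alas2, the haem synthesis enzyme of red cells, at 0 to 0.734 against 13.6 and 12.4 CPM. Ctsh, Mrap, Tdh, Sdsl, Gm42047, S100g and E030030I06Rik made up the rest. Without WT host 2 the calls of Ctsh, Mrap, Alas2, S100g and E030030I06Rik missed an adjusted p of 0.05, at 0.0608, 0.129, 0.0608, 0.167 and 0.0549, and that of Tdh did so without WT host 1, at 0.0720. Ttr differed the same way in forebrain cells (-3.50), spinal cord cells (-6.34) and all other cells (-5.31) of the same libraries, and Rps3a1 by -3.55, -3.66 and -3.89. Whether free RNA in the cell suspensions had a part was not tested.

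Some genes past an adjusted p of 0.05 were picked out after their values were seen, because they are expressed in neural cells. Gap43, Lmo1 and Car4 were also past 0.01 with an at least 2-fold change, while Rspo1 and Cdkn1a were not. Gap43 (chr16:42248442-42340651), a growth cone protein, was at 86.5, 73.7, 93.9 and 79.0 CPM in Tet-TKO members and at 25.6 and 27.1 CPM in WT host members (1.65, SE 0.15, adjusted p = 0.000636 by edgeR). Lmo1, a transcriptional cofactor of the nervous system, was at 20.003, 13.1, 13.3 and 8.32 against 68.7 and 58.9 CPM (-2.26, SE 0.28, adjusted p = 0.00313, or 0.0572 and 0.0549 without WT host 1 and 2 and 0.0542 with an equal number of members). Car4, a membrane carbonic anhydrase, was at 47.0, 55.7, 85.8 and 67.8 against 147 and 165 CPM (-1.28, SE 0.17, adjusted p = 0.00587 by edgeR, or 0.0641 and 0.168 without WT host 1 and 2), and without doublets it was at -1.20 (adjusted p = 0.0791). The groups did not overlap for any of the 3. Rspo1, a secreted enhancer of Wnt signalling, was at 14.8, 17.0, 21.7 and 25.7 against 6.21 and 3.01 CPM (2.21, SE 0.34, adjusted p = 0.0127, or 0.269 without WT host 2). Rspo1 differed by 1.37 (adjusted p = 0.444) without members holding other types' markers, and its call was lost at 5000 UMIs (0.226) and with an equal number of members (0.0904). Cdkn1a, the cell cycle inhibitor p21, was at 22.6, 18.3, 21.1 and 18.1 against 7.76 and 5.01 CPM (1.69, SE 0.27, adjusted p = 0.0143, or 0.0512 and 0.327 without WT host 1 and 2), and its call was lost with an equal number of members (0.215), at least 3 markers (0.0627), 5000 UMIs (0.453) or like libraries summed (0.0519).

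To see where the boundary differed from other parts of the neural tube, the Tet-TKO effect was compared with that in 1134 forebrain cells and 1058 spinal cord cells of the same libraries, chosen by their own markers. The effect differed from that in forebrain cells for 48 of 11600 genes (0.414%, edgeR test of the interaction, adjusted p under 0.05) and from that in spinal cord cells for 6 of 12146 (0.0494%). Without WT host 2 these fell to 3 and 2 genes.

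Against the forebrain, Spink1, a secreted protease inhibitor, gave the smallest p. In boundary cells it was at 1.74, 5.19, 4.14 and 3.91 against 100 and 37.7 CPM, whereas in forebrain cells it was at 68.5, 31.0, 25.9 and 33.6 against 63.1 and 35.2 CPM. The effects differed by -3.61 (SE 0.32, adjusted p = 2.43e-05). The boundary fold change of Spink1 itself, -4.15, was -3.02 without doublets (adjusted p = 0.0540) and -1.49 without members holding other types' markers (adjusted p = 0.391). In spinal cord cells Spink1 was low in the Tet-TKO libraries too, at 20.7, 3.04, 22.4 and 1.24 against 91.2 and 135 CPM. Foxd1, a forkhead factor of forebrain and mesenchyme, was at 6.52, 11.8, 16.4 and 22.3 against 2.72 and 4.01 CPM in boundary cells and at 13.9, 37.9, 48.4 and 82.6 against 35.3 and 71.9 CPM in forebrain cells (2.38, SE 0.28, adjusted p = 0.000785 for the difference). Vamp8, a vesicle fusion protein, had log2 fold changes of -1.12 at the boundary and 0.52 in the forebrain, which differed by -1.64 (SE 0.21, adjusted p = 0.00197). Irx3 and Irx1, homeobox genes that are kept out of the anterior forebrain, had changes of -0.66 and -0.22 at the boundary and of 0.76 and 1.17 in the forebrain. They differed by -1.41 (SE 0.20) and -1.39 (SE 0.20), both with an adjusted p of 0.00401, so for Irx1 most of the difference lay in the forebrain change. Aldh1a2 (1.90) and Crabp1 (1.16) differed with that same adjusted p by edgeR. Stmn2 (0.82), Krt18 (-0.82), Irx5 (-1.09) and Ccnd1 (0.46) also passed, at 0.0113, 0.0239, 0.0362 and 0.0393. Without WT host 2 the adjusted p was 0.306 for Foxd1, 0.147 for Vamp8, 0.209 for Irx3 and 0.277 for Irx1, and with at least 3 markers the difference of Irx1 was -0.89 (adjusted p = 0.820).

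Against the spinal cord, the 6 genes were Msx1, Rps3a3, Gap43 and Fbln2 on the higher side and Mab21l2 and Mest on the lower side. Msx1 was at 173, 156, 113 and 148 against 185 and 176 CPM in spinal cord cells, where the fitted change was -0.31, so the effects differed by 1.30 (SE 0.12, adjusted p = 0.000666). Mab21l2, a midbrain and eye gene, was at 3.91, 4.84, 9.15 and 19.8 against 14.4 and 23.3 CPM in boundary cells and at 1.53, 2.17, 4.79 and 17.4 against 0.647 and 0.828 CPM in spinal cord cells (-3.95, SE 0.51, adjusted p = 0.0132; -3.57 and 0.188 with at least 3 markers). Fbln2, an extracellular matrix protein, had log2 fold changes of 0.22 at the boundary and -1.95 in the spinal cord, so most of its difference of 2.22 (SE 0.31, adjusted p = 0.0178) lay in the spinal cord. Mest had fitted values of -0.37 and 0.41, a difference of -0.78 (SE 0.10, adjusted p = 0.0144), and Rps3a3 by 5.73 and 4.33, a difference of 1.33 (SE 0.15, adjusted p = 0.00483). The adjusted p was 0.418 for Mab21l2, 0.275 for Fbln2 and 0.247 for Mest without WT host 2, 0.0714 for Mab21l2 and 0.137 for Fbln2 without WT host 1, and 0.0565 for Fbln2 without Tet-TKO 3.

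Gap43 differed from both regions. It was at 42.0, 55.1, 47.9 and 70.9 against 46.0 and 40.6 CPM in forebrain cells and at 90.0, 105, 73.5 and 65.7 against 71.5 and 75.6 CPM in spinal cord cells. The boundary effect exceeded that in the forebrain by 1.37 (SE 0.21, adjusted p = 0.00612 by edgeR) and that in the spinal cord by 1.53 (SE 0.23, adjusted p = 0.0271). Among WT host cells Gap43 was thus lowest at the boundary of the 3 regions, while in Tet-TKO cells its boundary levels lay within the range of the spinal cord levels. The forebrain difference missed the threshold without WT host 1 (adjusted p = 0.0534) and WT host 2 (0.226), and the spinal cord difference without Tet-TKO 3 (0.0510), WT host 1 (0.154) and WT host 2 (0.472). Car4 differed from forebrain cells by -1.23 (SE 0.19, adjusted p = 0.00612, or 0.366 without WT host 2).

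Snrpn and Lmo1 also differed outside the boundary. Snrpn was at 290, 237, 255 and 350 against 139 and 119 CPM in forebrain cells and at 242, 207, 261 and 307 against 105 and 75.6 CPM in spinal cord cells (log2 fold changes 1.14, adjusted p = 0.0123, and 1.46, adjusted p = 0.00771, by edgeR). The rise of Snrpn at the boundary exceeded that in the forebrain by 0.45 (SE 0.09, adjusted p = 0.0357 by edgeR), and by 0.42 and 0.48 without WT host 1 and 2. The call of this difference was lost without WT host 1 and without WT host 2. It was also lost without Tet-TKO 2 and 3 (adjusted p = 0.0678 and 0.120 by edgeR), with at least 3 markers (0.0719) and on libraries 1 and 2 of each genotype alone (0.127). The difference of Snrpn from the spinal cord was 0.10 (SE 0.11, adjusted p = 0.884 by edgeR). Lmo1 was at 33.2, 30.1, 36.0 and 27.8 against 112 and 84.8 CPM in forebrain cells (-1.59, SE 0.16, adjusted p = 0.00144 by edgeR) and at 1.02 to 7.08 against 2.26 and 4.97 CPM in spinal cord cells, where little of it was present in either group.

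**Figure D4:**
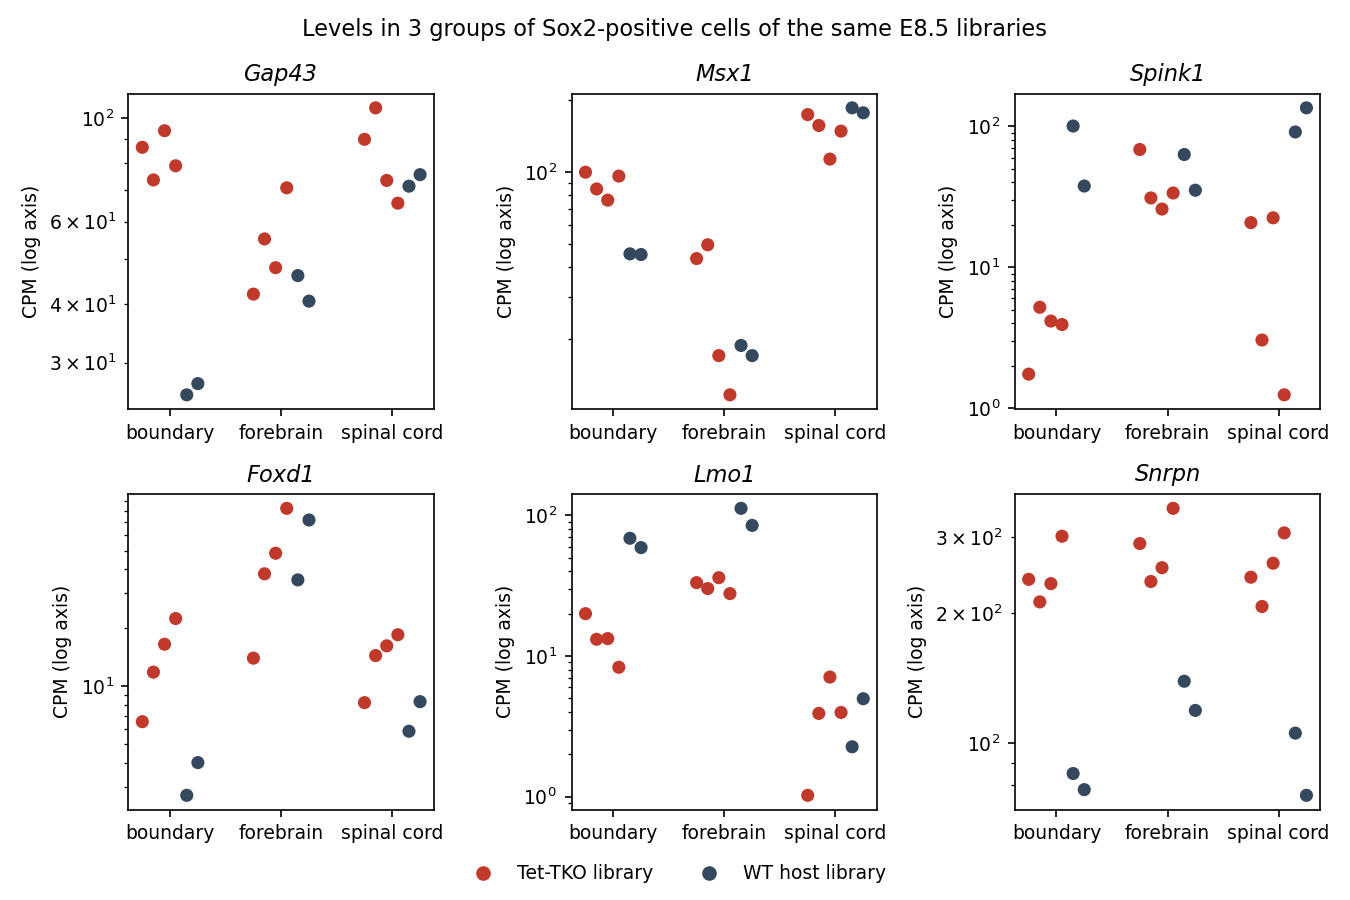
Level (CPM, log axis) of Gap43, Msx1, Spink1, Foxd1, Lmo1 and Snrpn in boundary, forebrain and spinal cord cells of the same libraries; points are the 4 Tet-TKO and 2 WT host libraries. Gap43 separates the groups in boundary cells (73.7 to 93.9 against 25.6 and 27.1 CPM), while in forebrain and spinal cord cells the points lie close together or overlap, and Snrpn is higher in the Tet-TKO libraries in all 3 regions.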

How the data were processed

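The authors mapped reads to the mm10 genome with Cell Ranger, counted them against GRCm38 gene models with the tdTomato sequence added, and deposited 1 matrix of UMI counts for each library. The counts are not normalised, and multi-mapping and near-identical genes follow Cell Ranger's defaults. Quality control used the study's limits: a minimum of 1500 UMIs, and no more than 30% of UMIs from mitochondrial or 35% from ribosomal protein genes. Of 39167 deposited E8.5 barcodes 37186 were kept.

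The members, gene lists and comparisons were chosen with earlier results of these data known, so no list is independent of the data. 24 gene lists were used, 10 of them of markers of other cell types. Genes were named by a rule: the 13 tested boundary genes; the 10 largest rises and falls among called genes outside the WT host range in every Tet-TKO library (without tdTomato, Xist, Y-linked and haemoglobin genes); at most 4 genes past the threshold and 2 abundant examples of each list; and the 5 genes with the lowest p of each interaction. Genes outside it are named as chosen after their values were seen.

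UMIs were summed over the members of each library and tested between 4 Tet-TKO and 2 WT host libraries with edgeR 4.0.16 (filterByExpr, TMM, quasi-likelihood test) in R 4.3.3, with Benjamini-Hochberg adjustment over all genes tested. Calls needed an adjusted p under 0.01 with a fold change of 2 or more, and within lists an adjusted p under 0.05 was used. Forebrain cells held Sox2 and at least 2 of 5 forebrain marker genes, such as Six3 and Rax (the full set is not reported here), and spinal cord cells Sox2, no T and at least 2 of Hoxb6, Hoxb7, Hoxb8, Hoxb9 and Hoxc6. Members were left out of both sets. The interaction fits had the library as a block. CPM values are counts per 1e6 UMIs of the summed cells, with no further scaling. Shares were compared by a two-sided exact permutation test over the libraries (15 arrangements), which cannot go below 0.133 (scipy 1.17.1). Cells were thinned at random to 5000 UMIs, and cells below that were left out of thinned shares (76 to 724 per library). Cardiomyocyte-marker cells held at least 5 of 7 cardiomyocyte genes. Doublets were scored with a reimplementation of Scrublet's method at 0.8% expected per 1000 barcodes and kept in the main analysis. Scripts were tested on simulated data. DESeq2 1.42.0, its size factors, no filter on low counts, stricter rules for members, leaving out doublets, mismatched tdTomato, other cell types or each library, an equal number of members, summed libraries and a replicate block were tried as alternatives.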

Additional observations from a re-analysis of the deposited data

Results flagged for a closer look

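Among the 4 Tet-TKO libraries 1 library stood apart, by Dixon's criterion at the 95% level, for 5 of 70 values examined, where chance gives about 1 in 20. Efna2 was highest in Tet-TKO 4 at 42.6 CPM. The other 4 were genes near 0 with UMIs in 1 Tet-TKO library: Ctsh in Tet-TKO 4 at 0.489 CPM, Mrap in Tet-TKO 3 at 0.173 CPM, Alas2 in Tet-TKO 4 at 0.734 CPM and Tdh in Tet-TKO 4 at 0.245 CPM.

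The Tet-TKO effect in boundary cells differed from that in forebrain cells, by edgeR's test of the interaction, for Spink1 (-3.61 on the log2 scale), Foxd1 (2.38), Vamp8 (-1.64), Irx3 (-1.41), Irx1 (-1.39), Gap43 (1.37), Car4 (-1.23) and Snrpn (0.45), among other genes. It differed from that in spinal cord cells for Msx1 (1.30), Rps3a3 (1.33), Mab21l2 (-3.95), Mest (-0.78), Fbln2 (2.22) and Gap43 (1.53). Of these 14 differences, those of Spink1, Msx1 and Rps3a3 kept an adjusted p under 0.05 whichever library was left out.

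At E7.5, a stage outside these comparisons, 7 of 5510 Tet-TKO cells met the boundary rule, or 0.127% (95% exact binomial interval 0.0511 to 0.262%, counting error only), beside 2 of 7142 WT host cells, or 0.0280% (0.00339 to 0.101%). With 1 library of each genotype there is no replicate check.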

How the results depend on the processing

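The main count of 61 called genes became 130 with DESeq2, 368 with no filter on low counts, 28 with members found at 5000 UMIs, 31 without cells of other types and 25 with an equal number of members, and 14 to 73 when 1 library was left out (17 without WT host 1, 14 without WT host 2). The 178 genes past an adjusted p of 0.05 became 713, 51, 68 and 44 under the last 4 of those settings, 100 with like Tet-TKO libraries summed, and 30 to 233 when 1 library was left out (104 without Tet-TKO 3, 55 without WT host 1, 30 without WT host 2). Differences from forebrain cells numbered 198 with no filter, 25 with at least 3 markers and 3 to 93 with 1 library left out (28 without Tet-TKO 3, 3 without WT host 2, 93 without Tet-TKO 4), and those from spinal cord cells 237, 14 and 2 to 22 (21 without Tet-TKO 1, 22 without Tet-TKO 2, 4 without WT host 1). The number of genes tested between the genotypes moved too, from 11108 in the main fit to 23351 with no filter. It was 6504 at 5000 UMIs, 8252 without cells of other types and 7940 with an equal number of members. The cause of these moves was not tested.

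The labels do not say that libraries with the same number belong together. Their deviations from group means correlated at 0.40 for number 1 and at -0.21 for number 2. With WT host 2, Tet-TKO 1 to 4 correlated at -0.40, -0.21, 0.36 and 0.27. The deviations of 2 WT host libraries mirror each other, so this check cannot tell whether the numbers pair. A replicate block on libraries 1 and 2 gave 225 called genes and 860 past 0.05, against 122 and 403 for the same 4 libraries without it (chosen after seeing the data). The replicate block turned the share of members on all UMIs to -0.912 points, as did the same libraries without the block. In the interaction fit, where the library block leaves no room for a replicate term, these 4 libraries gave 39 differences from spinal cord cells.

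The Wnt1 difference in cells chosen without Wnt1 (alternatives chosen after seeing the data) ranged from -2.76 to -2.28 with 1 library left out and was -2.40 without WT host 2, where its call was lost. The share of members on all UMIs ranged from -0.214 to 1.53 points, the thinned share from -1.10 to -0.109, the Otx2 share from -12.5 to -8.19, the Gbx2 share from 2.08 to 4.80 and the Fgf8 share from -0.766 to 1.53 (-0.685 without Tet-TKO 3). The Fgf8 share was -0.127 with at least 3 markers.

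Of 54 named gene results past 0.05, 741 of 848 values under alternatives kept direction and call, 107 lost the call (63 with 1 library left out, 53 of them a WT host library) and 0 reversed. Of 19 not past it, 305 of 352 values stayed so, 33 passed and 14 reversed. Those reversed were Fgf17 (0.061 at 5000 UMIs; -0.94 to 0.19 with 1 library left out, the highest without WT host 2), Lmx1b (0.12 with at least 3 markers, -0.35 to 0.078 with 1 library left out, the highest without WT host 1), Sp8 (0.22 with and without the block on libraries 1 and 2, 0.043 without Tet-TKO 3, 0.0064 without WT host 1), Cnpy1 (-0.088 without WT host 1 to 1.75 without WT host 2), Il17rd (-0.20 with the block, -0.24 on its libraries without it) and Fbln2 (-0.15 and -0.20 likewise, -0.16 without WT host 1 to 0.92 without WT host 2).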
